A study of Mus musculus with 3 samples.

Results

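The genes described here are 10 members of the major histocompatibility complex (MHC) class I presentation pathway: H2-K1, H2-D1, B2m, Tap1, Tap2, Tapbp, Psmb8, Psmb9, Psmb10 and Nlrc5. They were chosen by symbol from the 32227 genes of the count matrices, and all 10 had UMIs (unique molecular identifiers, each marking 1 captured transcript) in every library. Nuclear RNA was sequenced with PIP-seq, a droplet method in which template particles capture single nuclei with barcoded beads, from lumbar L3 to L5 dorsal root ganglia (DRG), which hold the somas of sensory neurons. The libraries came from C57BL/6 mice without any genetic change or treatment named in the labels: 1 library from adult mice of 3 months and 2 libraries from aged mice of 21 months. All 3 are labelled male, while the study's methods describe female aged mice, and the series' design text names another age for them. The study calls the libraries biological replicates, and the number of mice behind each is not given.

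MHC class I molecules show peptides from inside a cell to CD8 T cells and are read by natural killer cells. Proteasomes cut proteins into peptides, and interferon-gamma exchanges the constitutive catalytic subunits for those of the immunoproteasome (Psmb8, Psmb9 and Psmb10). The transporter made of Tap1 and Tap2 carries peptides into the endoplasmic reticulum, where Tapbp (tapasin) bridges it to the heavy chain (H2-K1 or H2-D1) paired with beta-2-microglobulin (B2m). Nlrc5 is the transactivator of class I genes, acting through the X and Y boxes of their promoters as Ciita does for class II, and resting neurons are known for low class I levels.

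By GENCODE M21 on GRCm38, 7 of the 10 genes lie in or beside the H2 complex on chromosome 17, all protein-coding: Tapbp (33915899 to 33929292, + strand), H2-K1 (33996017 to 34000347, - strand), Psmb9 (34181987 to 34187764, - strand), Tap1 (34187553 to 34197225, + strand), Psmb8 (34197721 to 34201454, + strand), Tap2 (34203527 to 34216321, + strand) and H2-D1 (35262730 to 35267499, + strand). Psmb10 (105935735 to 105938444, - strand) and Nlrc5 (94434356 to 94527272, + strand) lie on chromosome 8, and B2m (122147686 to 122153083, + strand) on chromosome 2. Tap1 and Psmb9 overlap at their 5′ ends on opposite strands, and Tap2, Psmb8, Psmb10, Nlrc5, Tapbp and B2m each overlap another annotated gene, so that reads could not be divided with certainty between such partners. H2-K1, H2-D1 and the H2-Q and H2-T genes are close paralogs, and their counts are likewise uncertain where reads fit several of them.

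RefSeq promoter entries (GRCm38.p6) were found for 8 of the 10 members, and the 250 bases before each listed start were searched on both strands for 5 motifs: the interferon response pairs GAANNGAAA and GAAANNGAA, which can overlap each other, the NF-kB form GGGNNTTCC, the X2 or CRE core TGACG and the Y box CCAAT. Of 32851 promoter windows, 12.5% held either interferon response pair, 4.98% the NF-kB form, 17.8% the X2 core and 33.8% the Y box, and 19 (0.0578%) held all 4 kinds. H2-K1 and H2-D1 were among those with all 4. B2m held an interferon response pair, the X2 core and the Y box, Tap1 and Psmb9 the X2 core and the Y box, Tapbp the Y box, and Psmb8 and Psmb10 none of the 5 within these windows. The windows of Tap1, Psmb9, Tapbp, Psmb8 and H2-D1 lie wholly within exons annotated by GENCODE (250 of 250 bases). Those of Tapbp, Psmb8 and H2-D1 (from 33919228, 34197945 and 35262844) and of Psmb9 (34187331 to 34187580, - strand) lie inside the annotated genes, so the bases before their GENCODE starts were not searched. The listed 300-base promoter entries of Tap1 and Psmb9 share 275 bases. RefSeq lists 2 starts for H2-K1, and its windows aligned with that of H2-D1 over 177 and 192 columns, of which 91.0% and 89.6% were identical. The stretches that hold the motifs are printed for H2-K1 (chr17:34000349-34000468, - strand) and B2m (chr2:122147538-122147648, + strand), a heavy chain and its partner, since both lie outside annotated exons, 5′ to 3′ in the direction of each gene, with motif matches on either strand in capitals.

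H2-K1: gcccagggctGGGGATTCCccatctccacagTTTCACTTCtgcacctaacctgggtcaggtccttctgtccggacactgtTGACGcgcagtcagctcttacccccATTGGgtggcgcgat
B2m: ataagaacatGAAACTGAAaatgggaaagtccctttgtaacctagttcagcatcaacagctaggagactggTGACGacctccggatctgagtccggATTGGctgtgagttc

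A match of letters describes the sequence only, and forms of a motif with other letters or lengths were not searched. The H2-D1 stretch is not shown because its window lies within exons annotated by GENCODE.

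The nuclei comprised 19259 barcodes that showed over 1000 genes each (11518, 5130 and 2611, where 3 values in a row stand for the adult library and then for aged replicates 1 and 2, here and in what follows), from totals of 69045987 to 167664164 UMIs per library. At most 1 barcode was shared by any pair of libraries. Xist, the RNA of the inactive X chromosome, stood at 1414, 844 and 929 UMIs among 1e+06 UMIs (CPM) of the nuclei, so that the data go against the male label in all 3 libraries. The Y-linked Ddx3y stood at 20.6, 13.2 and 7.87 CPM. Other Y-linked genes stood lower, Uty at 2.73, 1.00 and 0.718 CPM, Kdm5d at 1.01, 0.591 and 0.611 CPM and Eif2s3y at 0.0997, 0.0537 and 0.0266 CPM (9, 3 and 1 UMIs). Malat1, a nuclear RNA, took 5.0% of the UMIs of adult nuclei and 1.47% and 1.61% of those of aged nuclei, so the library ages also differ in this sign of preparation, and its part in the age differences was not tested. Clusters were named by markers and are called "like" a class, among them satellite glial cells (SGC), which wrap neuronal somas, and non-myelinating and myelinating Schwann cells (NMSC and MSC). Clusters with markers of several lineages were left out (925, 566 and 217 nuclei), and 8 classes with at least 20 nuclei in each library were compared. The SGC-like cluster showed 6 of 7 SGC markers and 4 of 7 NMSC markers, the NMSC-like cluster 5 of 7 NMSC and 4 of 7 SGC markers, so these classes are not cleanly apart, and 9 of 13 lymphocyte markers led the lymphocyte-like cluster, most of them B cell genes. The lymphocyte-like cluster also showed 3 of 8 myeloid markers, and a gate on marker UMIs placed 111 of its 496 nuclei among myeloid ones, so its levels are not those of B cells alone. SGC-like nuclei numbered 3234, 422 and 229, and their median depth was 3103, 7229 and 7862 UMIs.

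Levels of the pathway differed widely between classes. Levels are CPM of the UMIs summed over the nuclei of a class in 1 library, so they are shares of the RNA captured from that class. Summed over the 10 members, neuron-like nuclei held 152, 223 and 179 CPM in the 3 libraries, the lowest of the 8 classes in each library. This rank holds for shares of RNA and not for counts per nucleus, since neuron-like nuclei held more RNA. In the adult library 4552 neuron-like nuclei held 10227 UMIs of the members, against 3633 UMIs in 3234 SGC-like nuclei, so neuron-like nuclei had more per nucleus. Lymphocyte-like nuclei held 1652, 2130.1 and 2008 CPM, the highest in each. Endothelial-like nuclei came next with 1555, 1691 and 1636 CPM, and the SGC-like sum went from 342 CPM in adult nuclei to 790.2 and 795 in the aged ones.

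**Figure D1:**
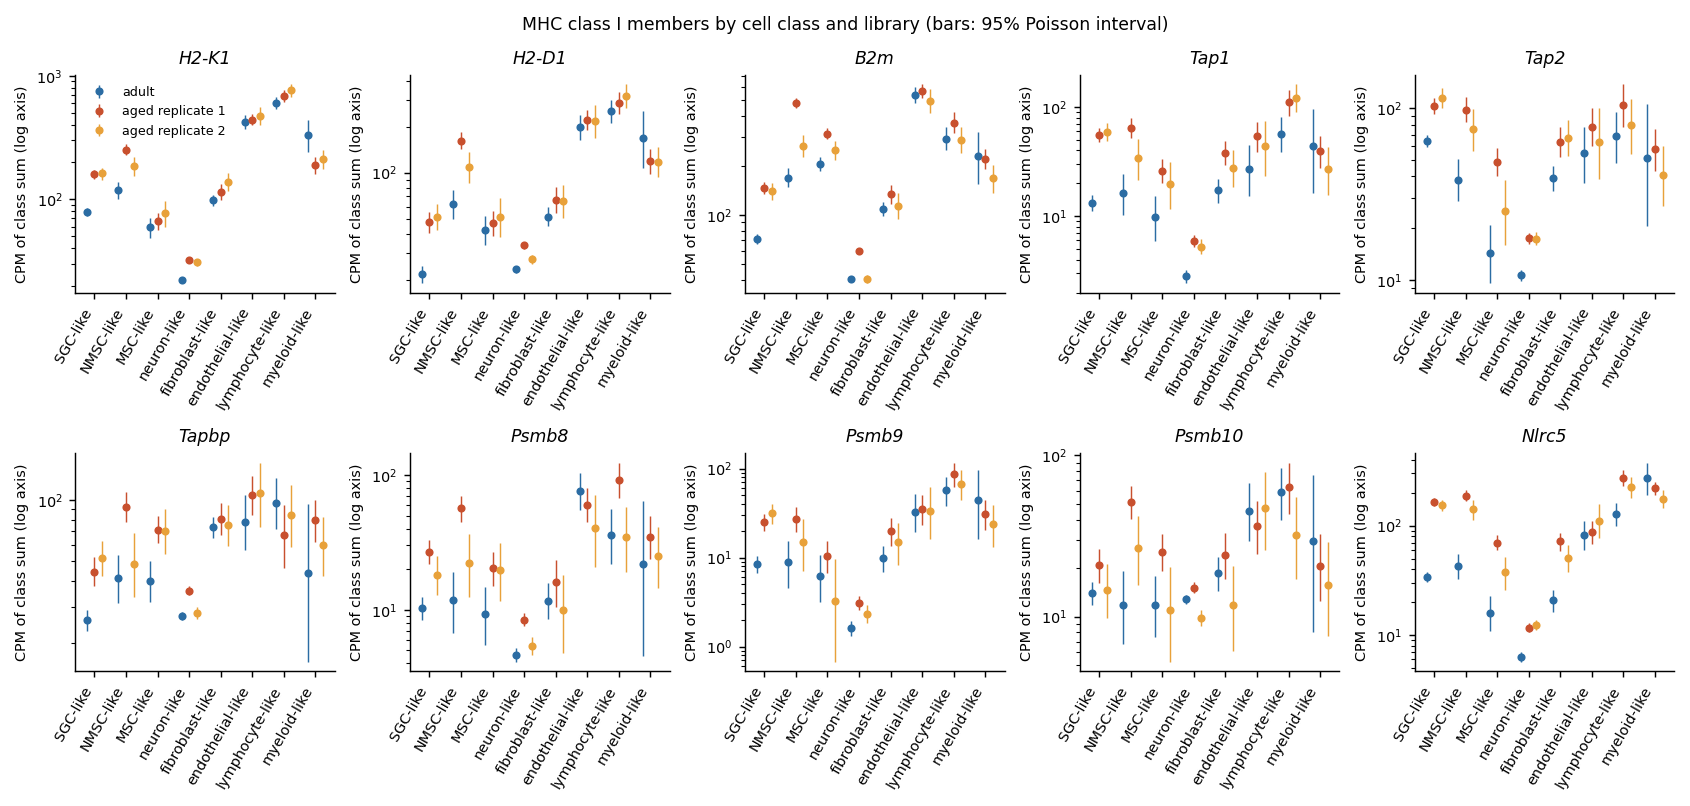
CPM of each of the 10 genes (log axis) in the summed UMIs of 8 cell classes, 1 point per library, with 95% Poisson intervals that cover counting error only. Neuron-like sums lie lowest for H2-K1 in all 3 libraries (22 to 32.2 CPM) and lymphocyte-like sums highest (606 to 759 CPM).

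In neuron-like sums, all 10 members were lower than the mean of the other classes (edgeR quasi-likelihood test with the library as a block, Benjamini-Hochberg adjusted p under 0.05 over 14380 genes), where 30.6% of all genes were lower. Nlrc5 differed by -3.02 ± 0.27 (SE, adjusted p = 8.47e-10) on the log2 scale, Psmb9 by -2.99 ± 0.23 (SE, adjusted p = 6.28e-11), Tap1 by -2.73 ± 0.19 (SE, adjusted p = 7.89e-12) and H2-K1 by -2.61 ± 0.17 (SE, adjusted p = 3.39e-12). The smallest difference was that of Psmb10, -0.74 ± 0.19 (SE, adjusted p = 0.00138). The constitutive proteasome was placed the other way in these nuclei: of 12 genes of the constitutive proteasome and its activators, 10 were higher than in the other classes (36.6% of all genes were), Psmb5 by 0.96 ± 0.13 (SE, adjusted p = 4.37e-07) and Psma5 by 0.84 ± 0.13 (SE, adjusted p = 5.03e-06). The remaining 2 were lower, and they are the interferon-inducible activator subunits Psme1 (-1.35 ± 0.15) and Psme2 (-0.76 ± 0.13). Clusters were made from all genes, the members included, so these values describe the classes as clustered.

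Among the other classes, 9 of 10 members were higher in lymphocyte-like sums (20.1% of all genes were), all but Tapbp. H2-K1 ranged from 606 to 759 CPM there (2.21 ± 0.13, SE, adjusted p = 1.18e-12) and Psmb9 from 57.0 to 85.9 CPM (2.18 ± 0.24, SE, adjusted p = 1.01e-07). Endothelial-like sums had 7 of 10 higher, against 16.2% of all genes. These were both heavy chains, B2m, Tapbp and the 3 immunoproteasome subunits, with B2m at 1.65 ± 0.14 (SE, adjusted p = 6.36e-10) and H2-K1 at 1.65 ± 0.14 (SE, adjusted p = 9.36e-10), while Tap1, Tap2 and Nlrc5 did not pass. In myeloid-like sums 4 of 10 were higher, against 21.6% of all genes, with Nlrc5 at 1.60 ± 0.26 (SE, adjusted p = 1.98e-05). MSC-like sums had 6 members lower and 1 (B2m) higher, where 16.6% of all genes were lower and 19.8% higher, and fibroblast-like sums had 5 lower, where 14.4% were.

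In SGC-like sums 6 of 10 members passed, in both directions and at shares near those of all genes. Tap2 was higher than in the other classes by 1.23 ± 0.13 (SE, adjusted p = 1.96e-08), Nlrc5 by 0.76 ± 0.21 (SE, adjusted p = 0.00543) and Tap1 by 0.68 ± 0.17 (SE, adjusted p = 0.00155) on the log2 scale, so 3 members were higher where 23.6% of all genes were. H2-D1 differed by -1.11 ± 0.16 (SE, adjusted p = 5.02e-06), B2m by -0.60 ± 0.15 (SE, adjusted p = 0.00213) and Tapbp by -0.51 ± 0.16 (SE, adjusted p = 0.0120), 3 members where 22.7% of all genes were lower. NMSC-like sums had 4 members higher (B2m, Nlrc5, Tap2 and H2-D1), against 14.1% of all genes. With a gate on marker UMIs in place of clusters, B2m turned to 0.12 in SGC and to -0.26 in NMSC, and H2-D1 to -0.58 in NMSC. Without aged replicate 1, the members called fell to 0 in NMSC-like and to 2 in SGC-like sums, and without aged replicate 2 to 1 in NMSC-like sums.

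Between ages, most members were higher in the aged libraries in SGC-like and NMSC-like sums. In SGC-like sums 9 of 10 members rose with age, all but Psmb10, where 6.93% of all 14248 genes tested did (edgeR quasi-likelihood test within the class), and no member fell. In NMSC-like sums 8 of 10 rose, all but Tapbp and Psmb9, where 3.49% of all genes did. MSC-like sums had 4 (5.01% of all genes), neuron-like sums 2 (1.84%) and fibroblast-like sums 1 (3.09%). No member was called in endothelial-like (0.761%), lymphocyte-like (0%) or myeloid-like sums (2.96%). At an unadjusted p under 0.05 there were 0, 2 and 1 members in these classes, where 11.5%, 6.76% and 19.7% of all genes tested stood, and DESeq2 also called 0 in each. The median log2 fold change over the 10 members was 0.95 in SGC-like, 1.08 in NMSC-like, 0.72 in MSC-like, 0.43 in neuron-like, 0.31 in lymphocyte-like, 0.28 in fibroblast-like, 0.10 in endothelial-like and -0.40 in myeloid-like sums, where the median of all genes tested lay between -0.00171 and 0.0629. Each fit had 1 adult and 2 aged libraries, and its single residual degree of freedom came from the aged pair. The spread of a gene was shrunk towards that of all genes, so SEs and p-values rest largely on this shared spread. They do not measure how far the aged libraries lay apart for a single gene.

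**Figure D2:**
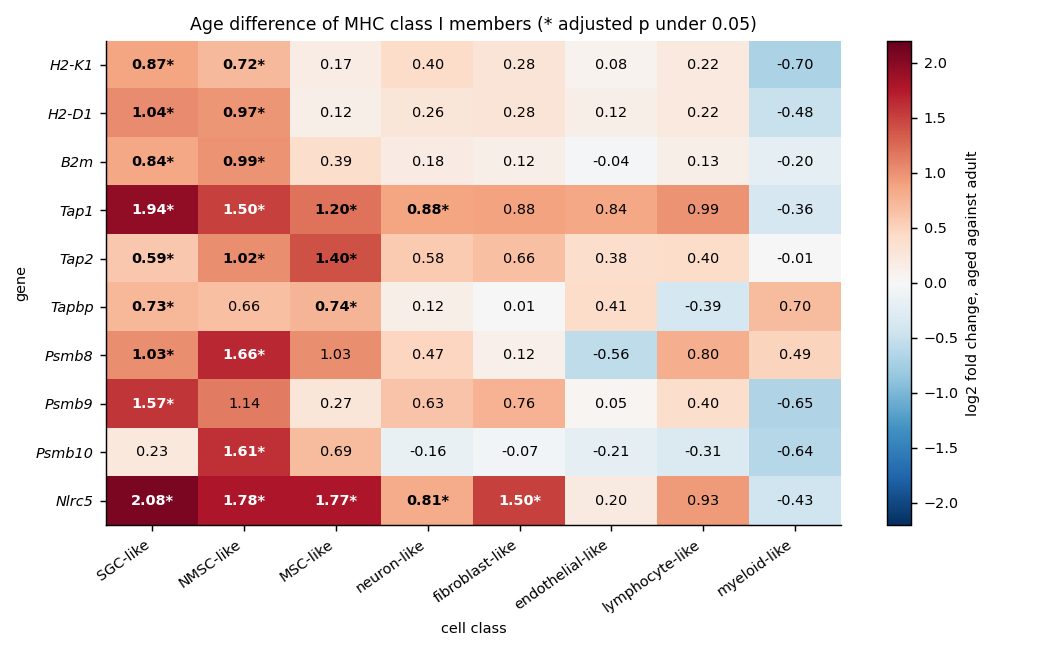
Log2 fold change of each gene (rows) between the aged and the adult libraries in 8 cell classes (columns), from edgeR fits within each class. Stars mark adjusted p under 0.05, and they number 9 in SGC-like, 8 in NMSC-like, 4 in MSC-like, 2 in neuron-like and 1 in fibroblast-like sums.

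In SGC-like sums Nlrc5, the transactivator, had the largest log2 fold change of the 10 members. Nlrc5 read 33.7 CPM in adult nuclei against 163 and 153 CPM in aged replicates 1 and 2 (358, 548 and 302 UMIs), an aged-to-adult log2 ratio of 2.08 ± 0.15 (SE, adjusted p = 1.07e-38). The aged libraries lay close together at 158 ± 6.92 CPM (SD, n = 2), far above the adult value. The heavy chains and B2m had smaller fold changes. H2-K1, a classical heavy chain, read 78.6 CPM in adult nuclei against 159 and 162 CPM in aged replicates 1 and 2 (836, 534 and 319 UMIs), an aged-to-adult log2 ratio of 0.87 ± 0.14 (SE, adjusted p = 8.19e-09). H2-D1, the other classical heavy chain, read 21.6 CPM in adult nuclei against 47.5 and 51.7 CPM in aged replicates 1 and 2 (230, 160 and 102 UMIs), a change of 1.04 ± 0.19 (SE, adjusted p = 3.38e-06). Their partner B2m read 71.5 CPM in adult nuclei against 146 and 139 CPM in aged replicates 1 and 2 (761, 491 and 275 UMIs), with 0.84 ± 0.14 (SE, adjusted p = 7.73e-08). For all 4 genes both aged libraries lay above the adult one, as they did for 51.6% of all 14248 genes tested in SGC-like sums.

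Among the genes for transport and loading, Tap1 had the largest fold change. Tap1 read 13.3 CPM in adult nuclei against 55.5 and 59.3 CPM in aged replicates 1 and 2 (142, 187 and 117 UMIs), an aged-to-adult log2 ratio of 1.94 ± 0.21 (SE, adjusted p = 5.19e-19). Tap2 read 64.4 CPM in adult nuclei against 103 and 114 CPM in aged replicates 1 and 2, with 0.59 ± 0.15 (SE, adjusted p = 0.00106), and Tapbp read 25.8 CPM in adult nuclei against 44.5 and 51.7 CPM in aged replicates 1 and 2, with 0.73 ± 0.19 (SE, adjusted p = 0.00174). Both aged libraries lay above the adult one for all 3 genes, and the difference between their fold changes was not tested.

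Of the immunoproteasome subunits, Psmb9 and Psmb8 rose and Psmb10 did not pass. Psmb9 read 8.37 CPM in adult nuclei against 24.9 and 31.4 CPM in aged replicates 1 and 2 (89, 84 and 62 UMIs), an aged-to-adult log2 ratio of 1.57 ± 0.27 (SE, adjusted p = 1.58e-07). Psmb8 read 10.2 CPM in adult nuclei against 27.0 and 18.2 CPM in aged replicates 1 and 2 (109, 91 and 36 UMIs), with 1.03 ± 0.26 (SE, adjusted p = 0.00139). Psmb10 read 14 CPM in adult nuclei against 20.8 and 14.7 CPM in aged replicates 1 and 2 (149, 70 and 29 UMIs), and its change of 0.23 ± 0.26 (SE, adjusted p = 0.643) was within the error. The constitutive subunits that these replace gave log2 fold changes of -0.19 ± 0.22 for Psmb5, -0.41 ± 0.20 for Psmb6 and 0.0004 ± 0.17 for Psmb7 (SE), and none passed the test (adjusted p = 0.642, 0.165 and 0.999).

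Immune or endothelial RNA within the SGC-like sums was measured beside these changes. The summed level of 8 myeloid markers was 30, 16.0 and 23.8 CPM, that of 13 lymphocyte markers 28.5, 22.6 and 33.4 CPM, that of 6 pan-leukocyte genes 23.4, 30 and 38.0 CPM and that of 8 endothelial markers 71.4, 44.2 and 28.4 CPM. At most 3 markers of a list were at 0 in any of these libraries. Free RNA, measured in barcodes of 10 to 100 UMIs, held 9.96, 18.3 and 15.8 CPM of Nlrc5. In it all 10 members stood higher in both aged libraries than in the adult one, as did 41.2% of the 14728 genes with at least 100 such UMIs over the 3 libraries. Free RNA made up about 12.0%, 12.7% and 12.3% of the SGC-like sums when all their neuron marker UMIs were taken as free RNA. RNA from attached neurons would be counted in this share. In all other compared classes but neuron-like sums (10.7%, 11.8% and 8.43%, by fibroblast markers) the share was lower in both aged libraries than in the adult one. It was 32.1%, 21.5% and 14.1% in endothelial-like, 29.6%, 16.8% and 12.1% in lymphocyte-like and 18.4%, 16.4% and 11.6% in NMSC-like sums. With every nucleus that held a UMI of a myeloid, lymphocyte, pan-leukocyte or endothelial marker removed, the same 9 members were higher, with log2 fold changes of 0.68 to 2.31. With nuclei thinned to 1000 UMIs the calls fell to 5 of 8, Psmb8 being too low to test, and with a gate on marker UMIs in place of clusters, which put 897 SGC-like nuclei among NMSC, to 4 of 9. DESeq2 called 5 of 9. The fold changes of the 9 members were above 0 in each of these fits that tested them.

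**Figure D3:**
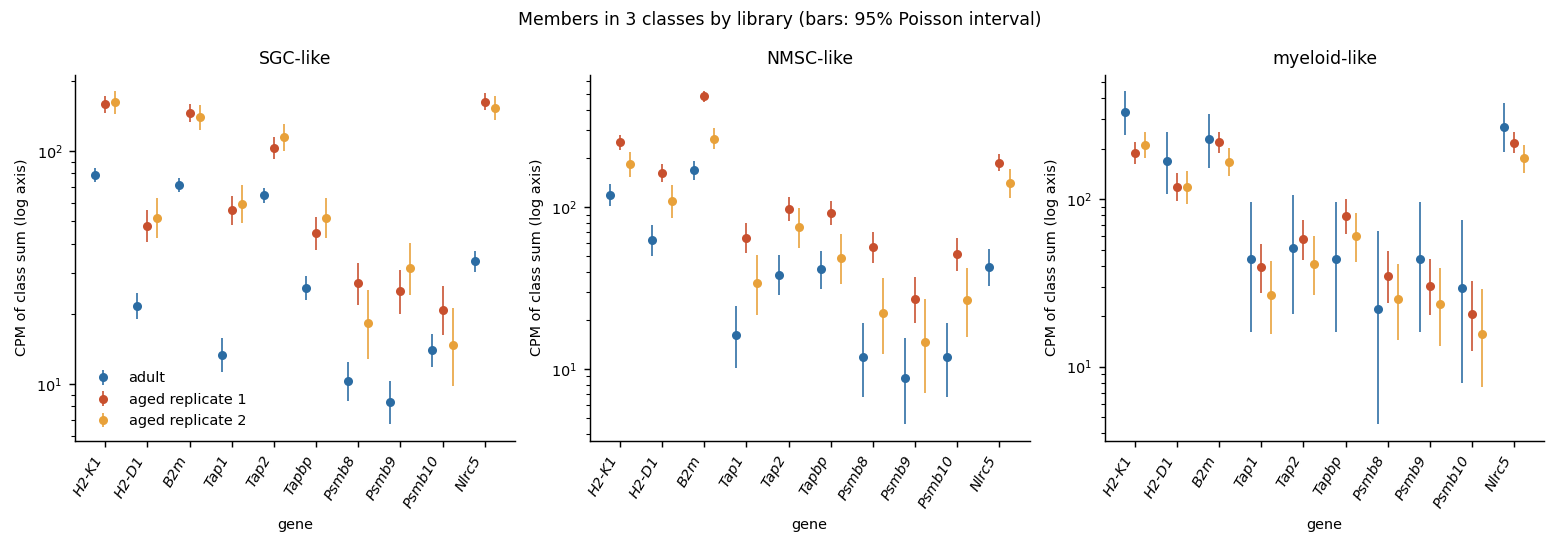
CPM of the 10 genes (log axis) in SGC-like, NMSC-like and myeloid-like sums, 1 point per library with 95% Poisson intervals. In SGC-like and NMSC-like sums the aged points lie above the adult point for all 10 genes (51.6% and 49.7% of all genes tested), while in myeloid-like sums the adult point is the highest for 7 of them (41.4%).

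In NMSC-like sums, the aged libraries lay above the adult one for all 10 members, and for 49.7% of all 12507 genes tested, but they differed more from each other than in SGC-like sums. Nlrc5 read 42.7 CPM in adult nuclei against 188 and 140.3 CPM in aged replicates 1 and 2 (58, 272 and 95 UMIs), an aged-to-adult log2 ratio of 1.78 ± 0.29 (SE, adjusted p = 1.33e-07). B2m read 169 CPM in adult nuclei against 482 and 264 CPM in aged replicates 1 and 2 (229, 699 and 179 UMIs), with 0.99 ± 0.23 (SE, adjusted p = 4.41e-04). H2-K1 read 119 CPM in adult nuclei against 251 and 185 CPM in aged replicates 1 and 2, with 0.72 ± 0.24 (SE, adjusted p = 0.0441). The aged libraries were thus far apart for B2m, at 373 ± 154 CPM (SD, n = 2).

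The remaining called members of NMSC-like sums had larger fold changes than H2-K1. Psmb8 read 11.8 CPM in adult nuclei against 56.6 and 22.1 CPM in aged replicates 1 and 2 (16, 82 and 15 UMIs), an aged-to-adult log2 ratio of 1.66 ± 0.45 (SE, adjusted p = 0.00478). Psmb10 read 11.8 CPM in adult nuclei against 51.1 and 26.6 CPM in aged replicates 1 and 2 (16, 74 and 18 UMIs), with 1.61 ± 0.45 (SE, adjusted p = 0.00710). Tap1 gave 1.5 ± 0.41 (SE, adjusted p = 0.00675), Tap2 1.02 ± 0.33 (SE, adjusted p = 0.0287) and H2-D1 0.97 ± 0.28 (SE, adjusted p = 0.0116). Psmb9 at 1.14 ± 0.53 (SE, adjusted p = 0.222) and Tapbp at 0.66 ± 0.33 (SE, adjusted p = 0.262) did not pass. Without aged replicate 1, the log2 fold changes of the 8 called members lay between 0.48 and 1.55, and without aged replicate 2 between 0.89 and 2.07. Myeloid markers summed to 36.1, 69.0 and 34.0 CPM in the NMSC-like sums and pan-leukocyte genes to 33.2, 73.8 and 38.4 CPM, and with nuclei that held an immune or endothelial marker UMI removed, all 8 calls remained. The summed level of 10 fibroblast markers in the NMSC-like sums was 469.5, 1298 and 1197 CPM, and its part in the age differences was not tested. DESeq2 called 1 of the 8, Nlrc5, and relative log expression scaling 4.

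In MSC-like sums the 4 called members were the regulator and the transport and loading genes. Nlrc5 read 15.9 CPM in adult nuclei against 69.8 and 37.3 CPM in aged replicates 1 and 2 (31, 169 and 34 UMIs), an aged-to-adult log2 ratio of 1.77 ± 0.31 (SE, adjusted p = 3.76e-07). Tap2 gave 1.4 ± 0.33 (SE, adjusted p = 5.22e-04), Tap1 1.20 ± 0.41 (SE, adjusted p = 0.0337) and Tapbp 0.74 ± 0.24 (SE, adjusted p = 0.0216). The heavy chains H2-K1 (0.17 ± 0.22, SE, adjusted p = 0.712) and H2-D1 (0.12 ± 0.26, SE, adjusted p = 0.842) did not pass. B2m read 206 CPM in adult nuclei against 314 and 248 CPM in aged replicates 1 and 2, with 0.39 ± 0.15 (SE, adjusted p = 0.0657), and Psmb8 read 9.25 CPM in adult nuclei against 20.2 and 19.8 CPM in aged replicates 1 and 2 (18, 49 and 18 UMIs), with 1.03 ± 0.45 (SE, adjusted p = 0.119). For both, the aged libraries lay above the adult one, and both were called with the marker gate in place of clusters (log2 fold changes of 0.51 and 1.28, adjusted p = 0.00827 and 0.0280). Without aged replicate 1, Nlrc5 gave 1.14 and Tap2 0.72. The 8 MSC markers themselves summed to 37418, 14498 and 13523 CPM in the MSC-like sums, lower in both aged libraries, and the part of this in the age differences was not tested. Lymphocyte markers in these sums totalled 169, 19.0 and 52.7 CPM, and with nuclei that held an immune or endothelial marker UMI removed the 4 calls remained. Of the 4 calls, 1 remained with more than 2000 genes per nucleus, 1 with nuclei thinned to 1000 UMIs and 2 with free RNA subtracted. DESeq2 called 0 of the 3 to which it gave an adjusted p, with none given for Tap1. In fibroblast-like sums Nlrc5 alone was called. It read 20.7 CPM in adult nuclei against 71.6 and 50.5 CPM in aged replicates 1 and 2 (78, 116 and 51 UMIs), an aged-to-adult log2 ratio of 1.5 ± 0.31 (SE, adjusted p = 5.83e-05). The make-up of these sums moved with age too. The 7 NMSC markers summed to 2215, 3197 and 2893 CPM in them, and 1 of the 3 fibroblast-like clusters, with Lum and Mmp2 among its leading genes, held 218 of 1191 adult nuclei against 109 of 380 and 60 of 190 aged ones. In that cluster Nlrc5 read 15.3 CPM in adult nuclei against 142 and 54.2 CPM in aged replicates 1 and 2 (9, 67 and 19 UMIs). In the other clusters it read 22.2 CPM against 55.3 and 42.0 CPM (33, 38 and 12 UMIs) and 21.2 CPM against 23.8 and 53.4 CPM (36, 11 and 20 UMIs). The aged values were thus above the adult one in each of the 3 clusters, which were not tested singly.

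In neuron-like sums 2 members rose, from low levels. Nlrc5 read 6.32 CPM in adult nuclei against 11.7 and 12.4 CPM in aged replicates 1 and 2 (426, 478 and 374 UMIs), an aged-to-adult log2 ratio of 0.81 ± 0.26 (SE, adjusted p = 0.0233). Tap1 read 2.82 CPM in adult nuclei against 5.98 and 5.26 CPM in aged replicates 1 and 2 (190, 244 and 159 UMIs), with 0.88 ± 0.30 (SE, adjusted p = 0.0407). For both genes the aged libraries lay above the adult one, and the other 8 members did not pass. The make-up of these sums also differed between ages. In 5 of the 15 neuron-like clusters Malat1, a long noncoding RNA retained in the nucleus, made up under 1% of UMIs, a limit chosen after the clusters were seen, and these clusters held 902 of 4552 adult nuclei against 1003 of 2414 and 398 of 1303 aged ones. In the other 10 clusters Nlrc5 read 6.38 CPM in adult nuclei against 12.8 and 12.9 CPM in aged replicates 1 and 2, and Tap1 2.55 CPM against 5.58 and 5.09 CPM. In the 5 clusters low in Malat1, Nlrc5 read 5.8 CPM against 6.75 and 7.55 CPM and Tap1 5.09 CPM against 7.82 and 6.86 CPM, on 20 to 58 UMIs each. The aged values were thus the higher ones in either set of clusters, with no test within them. Tap2 read 10.7 CPM in adult nuclei against 17.4 and 17.4 CPM in aged replicates 1 and 2, with 0.58 ± 0.24 (SE, adjusted p = 0.112). H2-K1 read 22 CPM in adult nuclei against 32.2 and 30.8 CPM in aged replicates 1 and 2, with 0.40 ± 0.22 (SE, adjusted p = 0.312). Psmb9 read 1.62 CPM in adult nuclei against 3.07 and 2.35 CPM in aged replicates 1 and 2, and Psmb10 read 12.8 CPM in adult nuclei against 15.1 and 9.83 CPM in aged replicates 1 and 2, so that the ages overlapped for Psmb10 and not for the other 3 genes. Free RNA held more B2m RNA in CPM than neuron-like nuclei did, 162, 275 and 268 CPM of B2m against 40.6, 59.8 and 40.5 CPM in these nuclei. With free RNA subtracted, or with nuclei that held an immune or endothelial marker UMI removed, 0 of the 2 calls remained by edgeR, and Nlrc5 then gave log2 fold changes of 0.81 and 0.22. The removal left 953, 673 and 356 neuron-like nuclei with 5.74%, 6.75% and 5.43% of the UMIs and a median of 2550, 2698 and 2766.5 UMIs per nucleus, against 7361.5, 5775 and 7465 before it, so that its value rests on few and shallow nuclei. The genes used for the removal included 6 pan-leukocyte genes, of which 1 was higher in neuron-like sums than in the other classes. These 6 genes held 4992, 3657 and 2149 UMIs in neuron-like nuclei, so the removal could also take nuclei for RNA of their own.

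Neuron subtypes differed among themselves, though their clusters too were made from all genes. Neurofilament-rich (NF) neurons are large myelinated cells for touch and proprioception. NF-like sums had 4 members lower than the other 5 named subtypes (24.8% of all genes were lower) and 1 higher (28%). H2-K1 stood at 12.2, 15.5 and 19.8 CPM in NF-like sums (-1.11 ± 0.12, SE, adjusted p = 5.06e-07), and at 35.4, 50.8 and 50.4 CPM in non-peptidergic (NP, Mrgprd) sums. Tap2 (-0.98 ± 0.17, SE, adjusted p = 7.03e-05), Nlrc5 (-0.78 ± 0.20, SE, adjusted p = 0.00310) and Psmb8 (-0.54 ± 0.22, SE, adjusted p = 0.0431) were also lower in NF-like sums, while Tapbp was higher by 0.44 ± 0.15 (SE, adjusted p = 0.0177). Peptidergic (PEP) nociceptors, which signal pain and release neuropeptides, had 6 members higher and none lower, where 18.8% of all genes were higher. Nlrc5 stood at 12.0, 22.1 and 20.9 CPM there (0.96 ± 0.16, SE, adjusted p = 1.49e-04) and B2m at 70.0, 92.5 and 62.2 CPM (0.60 ± 0.13, SE, adjusted p = 0.00109). NP-like sums had 3 members higher (18.2% of all genes were) and none lower, H2-K1 with 0.87 ± 0.10 (SE, adjusted p = 1.28e-06), Tap2 with 0.69 ± 0.14 (SE, adjusted p = 5.09e-04) and H2-D1 with 0.49 ± 0.10 (SE, adjusted p = 7.02e-04). The SST and TRPM8 subtypes had calls in both directions at numbers near the shares of all genes. In SST-like sums 2 members were higher (17.6% of all genes), Nlrc5 at 9.88, 16.1 and 23.5 CPM (0.81 ± 0.21, SE, adjusted p = 0.00630) and Tap2 (0.50 ± 0.18, SE, adjusted p = 0.0364), and 2 were lower (16.8%), Tapbp (-0.84 ± 0.20, SE, adjusted p = 0.00306) and B2m (-0.79 ± 0.17, SE, adjusted p = 0.00120). In TRPM8-like sums B2m was higher (0.50 ± 0.15, SE, adjusted p = 0.0196), where 14.3% of all genes were, and 2 members were lower (12%), Nlrc5 at 5.32, 4.78 and 7.78 CPM (-0.84 ± 0.28, SE, adjusted p = 0.0324) and H2-D1 (-0.41 ± 0.14, SE, adjusted p = 0.0368). In cLTMR-like sums 0 members were higher (19.2% of all genes were) and 1 was lower (15.5%), Psmb10 (-0.51 ± 0.15, SE, adjusted p = 0.0129). Nuclei given no subtype name held H2-K1 at 9.16, 13.4 and 11.3 CPM, below the NF-like sum of each library, and were left out of this test. All 3 NF-like values of H2-K1 lay below all values of the NP-like and PEP-like sums. Clusters low in Malat1 entered the NF, NP, PEP and cLTMR sums but not the SST and TRPM8 sums. In adult neuron-like nuclei Tapbp read 61.4 CPM in such clusters and 22.9 CPM in the others, B2m 91.4 and 34.6 CPM, and Nlrc5 5.80 and 6.38 CPM. The NF-like cluster not low in Malat1 met 3 NF markers, 1 SST marker and 1 TRPM8 marker, so its name is less sure. The 2 NF-like clusters low in Malat1 met 6 and 3 NF markers. In the NF-like cluster not low in Malat1, Tapbp read 16.0, 28.1 and 28.9 CPM. The part of this cluster mix in the subtype differences was not tested.

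Within subtypes, 3 members rose with age in NF-like sums, where 9.75% of all genes did. Tapbp read 27.2 CPM in adult nuclei against 53.6 and 54.7 CPM in aged replicates 1 and 2 (286, 368 and 171 UMIs), an aged-to-adult log2 ratio of 0.84 ± 0.18 (SE, adjusted p = 0.00349). B2m gave 0.73 ± 0.19 (SE, adjusted p = 0.0116) and H2-D1 0.65 ± 0.19 (SE, adjusted p = 0.0268). The mix of clusters moved with age here, since the 2 NF-like clusters low in Malat1 held 40.5% of adult nuclei against 72.5% and 70.1% of aged ones, and they had higher levels of all 3 genes than the remaining NF-like cluster. H2-D1 was not higher in aged nuclei of that remaining cluster, at 13.9 CPM in adult nuclei against 13.4 and 13.3 CPM in aged replicates 1 and 2, and read 36.5 CPM against 58.9 and 55.7 CPM in the 2 clusters low in Malat1. B2m read 15.3 CPM against 33.5 and 36.5 CPM in the remaining cluster, and its ages overlapped in the 2 clusters low in Malat1, at 74.0 CPM against 91.1 and 67.1 CPM. Tapbp was above the adult value in both, at 16.0 CPM against 28.1 and 28.9 CPM and at 57.5 CPM against 78.0 and 86.4 CPM. These values were not tested within clusters. In NP-like sums 1 member rose (1.93% of all genes), Nlrc5, which read 5.25 CPM in adult nuclei against 13.7 and 11.4 CPM in aged replicates 1 and 2, with 1.14 ± 0.34 (SE, adjusted p = 0.0140). The NP-like cluster low in Malat1 held 13.7% of adult nuclei against 38.6% and 28.4% of aged ones. Nlrc5 read 5.39 CPM against 14.8 and 11.7 CPM in the other 2 NP-like clusters (68, 130 and 85 UMIs), and 3.67 CPM against 7.85 and 8.16 CPM in the cluster low in Malat1, on only 4, 12 and 5 UMIs. No member was called in the PEP, SST, TRPM8, cLTMR (Th) and unnamed subtypes by edgeR (8 to 10 members tested), and 1, 1, 0, 0 and 1 members had an unadjusted p under 0.05 there, where 8.82%, 14.6%, 10.5%, 9.01% and 17.9% of all genes did. DESeq2 was not run on subtypes.

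**Figure D4:**
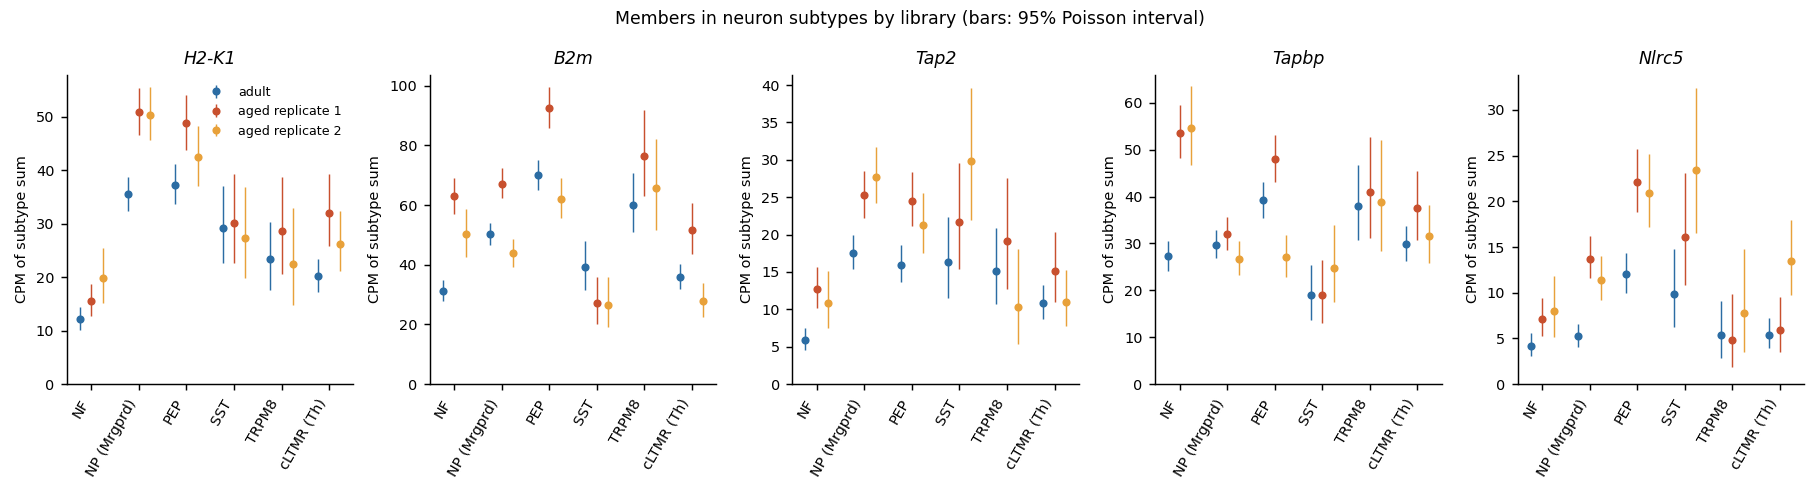
CPM of 5 members in the summed UMIs of 6 neuron subtypes, 1 point per library with 95% Poisson intervals. Of these 6, H2-K1 lies lowest in NF-like sums in all 3 libraries, and Tapbp in NF-like sums is higher in both aged libraries (53.6 and 54.7 CPM) than in the adult library (27.2 CPM).

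In myeloid-like sums 7 of 10 members read lower in both aged libraries than in the adult one, as 41.4% of all 9813 genes tested did, and none passed the test within the class. H2-K1 read 330.0 CPM in adult nuclei against 189 and 211 CPM in aged replicates 1 and 2 (45, 173 and 134 UMIs), and Nlrc5 read 271 CPM in adult nuclei against 218 and 175 CPM in aged replicates 1 and 2 (37, 200 and 111 UMIs), an aged-to-adult log2 ratio of -0.43 ± 0.27 (SE, adjusted p = 0.412). With the marker gate the Nlrc5 value turned to 0.71, and with nuclei thinned to 0.13. The adult myeloid-like sum held only 56 nuclei, against 190 and 139 in the aged libraries. The summed level of 8 myeloid markers there was 3879, 1656 and 1579 CPM, and that of 13 lymphocyte markers 455, 117 and 107 CPM, both lower in the aged libraries. Class II genes fell there, 4 of 6 where 2.39% of all genes fell, with log2 fold changes for H2-Ab1 of -2.28 ± 0.30 (SE, adjusted p = 0.00145) and for H2-Eb1 of -2.21 ± 0.33 (SE, adjusted p = 0.00293), as did their transactivator Ciita, which read 381 CPM in adult nuclei against 97.0 and 101 CPM in aged replicates 1 and 2, with -1.92 ± 0.25 (SE, adjusted p = 0.00141). Whether the mix of myeloid cell types differed between ages was not tested.

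The age effect of 1 class was then set against the mean age effect of the other 7 in a joint fit. Nlrc5 in myeloid-like sums was the only member past the threshold, with a difference of -1.63 ± 0.36 (SE, adjusted p = 0.0235) on the log2 scale, where 0.508% of 14380 genes were lower and the median of all genes was 0.16. In SGC-like sums Nlrc5 gave 1.12 ± 0.26 (SE, adjusted p = 0.0702), where the median of all genes was -0.13. In this fit Nlrc5 differed in its age effect between myeloid-like nuclei and the mean of the other classes. For no member was a larger age effect shown in SGC-like or NMSC-like nuclei than elsewhere, except for Nlrc5 in SGC-like sums when genes of low counts were kept (1.07, adjusted p = 0.00765). With the marker gate the myeloid-like difference was -0.55 (adjusted p = 0.526), and with free RNA subtracted -1.54 (adjusted p = 0.149).

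In the sums of endothelial-like and lymphocyte-like nuclei, where levels were highest, no member passed. H2-K1 read 421 CPM in adult nuclei against 441 and 474 CPM in aged replicates 1 and 2 in endothelial-like sums, and B2m read 539.5 CPM in adult nuclei against 571 and 497 CPM in aged replicates 1 and 2, so that the ages overlapped for B2m. In lymphocyte-like sums Nlrc5 read 127 CPM in adult nuclei against 272 and 223 CPM in aged replicates 1 and 2 (67, 133 and 90 UMIs), an aged-to-adult log2 ratio of 0.93 ± 0.34 (SE, adjusted p = 0.697) that did not pass. Tap1 there read 57.0 CPM in adult nuclei against 110.4 and 122 CPM in aged replicates 1 and 2 (30, 54 and 49 UMIs), with 0.99 ± 0.40 (SE, adjusted p = 0.733). Both genes were above the adult value in the aged libraries, and no gene of all 10290 tested rose in this class. The summed level of 8 myeloid markers in the lymphocyte-like sums was 606, 781 and 1544 CPM, and that of 13 lymphocyte markers 3315, 3794 and 1737 CPM, and the part of this in the age values was not tested. Endothelial-like sums held Nlrc5 at 81.7, 86.7 and 111 CPM, with 0.20 ± 0.38 (SE, adjusted p = 0.910).

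The share of nuclei with a UMI was compared after each nucleus was thinned to 1000 UMIs, since aged SGC-like nuclei were deeper. In SGC-like nuclei Nlrc5 was found in 3.00% (2.44 to 3.65) of adult nuclei against 12.8% (9.76 to 16.4) and 12.2% (8.28 to 17.2) in aged replicates 1 and 2 (exact Clopper-Pearson 95% intervals, counting error only). The unthinned shares were 7.95%, 40.0% and 43.2%. H2-K1 was found in 6.86% (6.02 to 7.79) of adult nuclei against 13.3% (10.2 to 16.9) and 14.8% (10.5 to 20.1) in aged replicates 1 and 2. In NMSC-like nuclei Nlrc5 was found in 3.19% (1.80 to 5.21) of adult nuclei against 14.9% (10.9 to 19.6) and 11.4% (6.68 to 17.9) in aged replicates 1 and 2. In neuron-like nuclei, the class with the lowest levels, its share was 0.681% (0.463 to 0.965) of adult nuclei against 0.953% (0.605 to 1.43) and 0.844% (0.422 to 1.51) in aged replicates 1 and 2, and the intervals overlapped. At least 1 UMI of any of the 10 members was found in 27.2%, 47.6% and 51.1% of thinned SGC-like nuclei and in 75.0%, 62.6% and 55.4% of thinned myeloid-like nuclei.

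**Figure D5:**
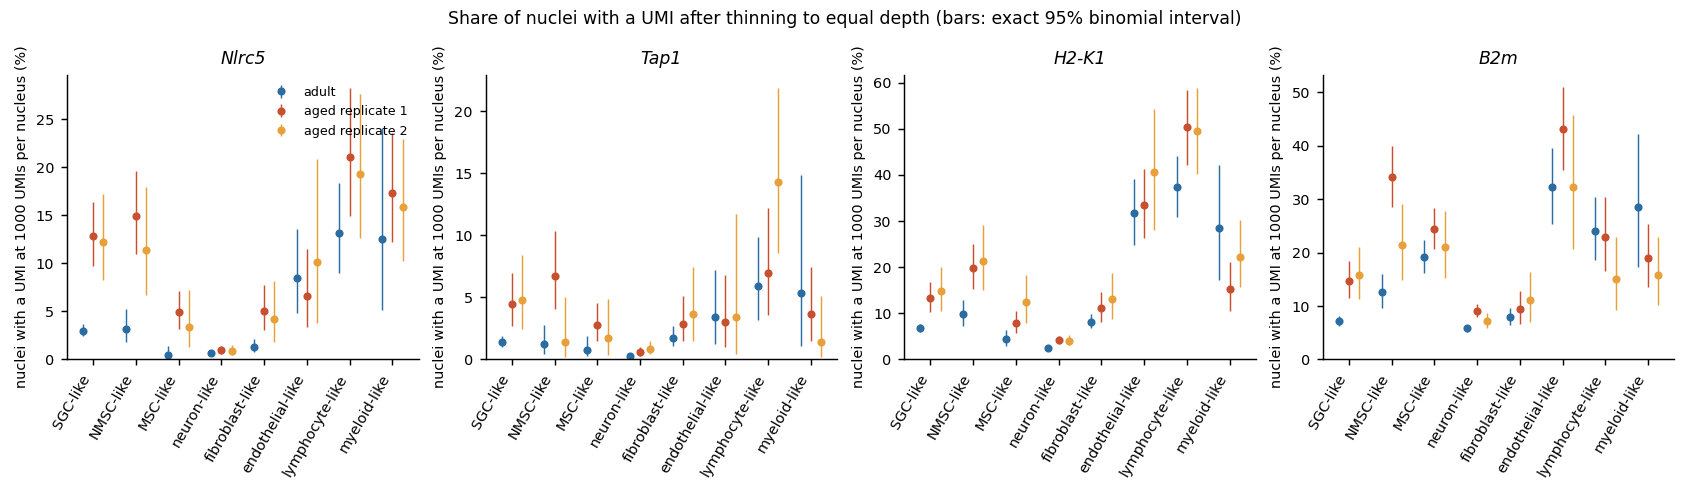
Share of nuclei with a UMI of 4 members (%) by class and library, after each nucleus was thinned to 1000 UMIs, with exact 95% binomial intervals. In SGC-like nuclei the Nlrc5 share is 3.00% for adult nuclei and 12.8% and 12.2% for aged nuclei, and the adult interval overlaps neither aged one.

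Some of the other class I genes rose in SGC-like sums, where 6.93% of all genes did, and in NMSC-like sums, where 3.49% did. Of 15 other class I heavy chain genes, 11 were tested and 3 rose, among them H2-Q4, which read 6.86 CPM in adult nuclei against 30.6 and 48.1 CPM in aged replicates 1 and 2 (73, 103 and 95 UMIs), giving an aged-to-adult log2 ratio of 2.32 ± 0.26 (SE, adjusted p = 2.85e-17), and H2-Q7, with 2.25 ± 0.35 (SE, adjusted p = 5.05e-09). In NMSC-like sums 4 of 8 rose, H2-T23 by 2.29 ± 0.76 (SE, adjusted p = 0.0382) and H2-Q4 by 2.19 ± 0.42 (SE, adjusted p = 1.11e-05) among them. Of 12 genes of the constitutive proteasome and its activators, 1 rose in SGC-like sums, a share near that of all genes, Psme2, a subunit of the interferon-inducible activator, by 0.85 ± 0.22 (SE, adjusted p = 0.00178), and 1 fell in MSC-like sums (7.14% of all genes did), Psmb6, with -1.02 ± 0.25 (SE, adjusted p = 6.46e-04). Of 9 genes for peptide loading and trimming, 2 rose in SGC-like sums: Tapbpl, a tapasin-like editor of peptides, with 1.44 ± 0.43 (SE, adjusted p = 0.00880), and Erap1, which trims peptides in the endoplasmic reticulum, with 0.70 ± 0.20 (SE, adjusted p = 0.00532).

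Of 19 regulators of class I and interferon signaling, 5 rose and 1 fell in SGC-like sums, where 6.93% of all genes rose and 9.16% fell. The gene that fell was Nfkb1, a subunit of NF-kB, with -0.49 ± 0.10 (SE, adjusted p = 3.31e-05). In NMSC-like sums Nfkb1 fell as well, with -0.63 ± 0.20 (SE, adjusted p = 0.0309), and Ciita rose by 3.26 ± 0.89 (SE, adjusted p = 0.00602) on 2, 28 and 9 UMIs. Irf8 in SGC-like sums gave 2.54 ± 0.93 (SE, adjusted p = 0.0419) on 7, 18 and 6 UMIs. Of 6 class II genes, 0 were called in SGC-like sums by edgeR, and in NMSC-like sums 1 of 5 rose, H2-Aa, on 2, 31 and 4 UMIs (3.12 ± 0.92, SE, adjusted p = 0.0130). Of 10 T and natural killer cell genes, 4 had enough UMIs for the age test in lymphocyte-like sums and 0 were called, and in SGC-like sums 0 could be tested. In neuron-like sums the heavy chain gene H2-Q2 rose on 5, 26 and 18 UMIs (2.89 ± 0.72, SE, adjusted p = 0.00152), and Cd4 (-2.33 ± 0.33, SE, adjusted p = 2.10e-10) and Cd52 (-1.27 ± 0.37, SE, adjusted p = 0.0110), genes of immune cells, fell. H2-T22 rose in MSC-like sums on 9, 41 and 11 UMIs (1.62 ± 0.58, SE, adjusted p = 0.0429), where the leukocyte gene Ptprc fell (-1.94 ± 0.36, SE, adjusted p = 1.97e-06). In myeloid-like sums the proteasome gene Psmd1 rose (1.34 ± 0.32, SE, adjusted p = 0.0331) and Cd52 fell (-2.06 ± 0.48, SE, adjusted p = 0.0294).

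The 5 genes whose profile followed the mean log2 CPM of the members most closely over 24 sums of 8 classes and 3 libraries were H2-Q4 (Pearson's r = 0.960), H2-T23 (0.935), H2-Q7 (0.930), Irf1 (0.926) and Ppp2r5a (0.917), of 12366 genes compared. Of these 5 genes, 3 are class I heavy chain genes and Irf1 is an interferon-induced transcription factor. The sums of a library share its depth and its free RNA, and the values are descriptions across sums, not tests.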

How the data were processed

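Nuclei of L3 to L5 DRG were profiled with the Illumina Single Cell 3′ (PIP-seq) kit, and the authors aligned the reads and counted transcripts with Pipseeker to mm10 (per the labels' processing notes). Annotation and strand setting are not given in the sources used here. The deposited matrices hold raw UMI counts, without normalization, for every barcode of each library. The 10 members and the other gene lists were chosen with earlier results of these data known, and members were all named, while of the other lists the text names, per class and direction, called genes among the 2 with the largest changes, all but 1 (not reported here) for age and only some between classes.

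Barcodes with more than 1000 genes were kept. Nuclei were clustered with Seurat 5.3.0 (SCTransform on 3000 features, reciprocal PCA integration by age, 30 components, resolution 0.8), and clusters were named from markers by a rule set after the clusters were seen. No doublet caller was run, and clusters with markers of several classes were left out. UMIs were summed per class and library. Age was tested within each class, and each class against the mean of the others with the library as a block, by edgeR 4.0.16 quasi-likelihood tests (R 4.3.3, TMM scaling, filterByExpr) with Benjamini-Hochberg adjustment over all genes tested, and a call needed an adjusted p under 0.05. In an age test the only adult library was assumed to vary like the aged ones, with 1 residual degree of freedom. The scripts were tested on simulated data. Alternatives were DESeq2 1.42.0, relative log expression scaling, no filter on low counts, more than 2000 genes per nucleus, a gate on marker UMIs, thinning to 1000 UMIs, subtraction of free RNA, removal of nuclei with an immune or endothelial marker UMI, and leaving out each library. Library totals were 167664164, 95647106 and 69045987 UMIs, and intervals at 95% cover counting error only.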

Additional observations from a re-analysis of the deposited data

Results flagged for a closer look

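The age effect of Nlrc5 in myeloid-like sums, set against the mean age effect of the other 7 classes, was -1.63 on the log2 scale, because a test of the difference itself passed its threshold (edgeR quasi-likelihood test, adjusted p = 0.0235). Within the myeloid-like sums its own log2 fold change of -0.43 did not pass (adjusted p = 0.412) and turned to 0.71 with the marker gate and 0.13 with thinned nuclei. Nlrc5 rose by 2.08 in SGC-like sums. The adult myeloid-like sum held 37 UMIs of Nlrc5 from 56 nuclei. The difference between classes was not called with the marker gate or with free RNA subtracted.

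The barcodes of 10 to 100 UMIs, which hold free RNA and enter the comparisons of cell classes only where free RNA was subtracted, also differed between ages: all 10 members stood at a higher CPM there in both aged libraries than in the adult library, as did 41.2% of the 14728 genes with at least 100 such UMIs. B2m went from 162 CPM to 275 and 268 CPM and Nlrc5 from 9.96 CPM to 18.3 and 15.8 CPM. With free RNA subtracted, 8 of the 9 calls in SGC-like sums remained.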

How the results depend on the processing

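The direction of the 24 age calls did not change under any alternative that tested them, while 35 of all 80 age values of the members changed sign under at least one. Members called for age numbered, in SGC-like sums (9), 4 with the marker gate, 5 with nuclei thinned to 1000 UMIs (Psmb8 not tested) and 5 with DESeq2. In NMSC-like sums (8) they numbered 2 with more than 2000 genes per nucleus, 3 with the gate, 3 thinned, 4 with relative log expression scaling and 1 with DESeq2. In MSC-like sums (4) they numbered 1 with more than 2000 genes, 1 thinned, 2 with free RNA subtracted and 0 with DESeq2 (no adjusted p for Tap1). In fibroblast-like sums (1) they numbered 0 thinned and 0 with DESeq2, and in neuron-like sums (2) 0 with the gate, thinned, with marker-positive nuclei removed, with free RNA subtracted and with DESeq2. The gate called 1 in lymphocyte-like sums (Nlrc5), and subtraction of free RNA called 1 in myeloid-like sums (H2-K1, lower). The class by age test (1) called 0 with the gate and with free RNA subtracted, and 2 without a filter. Among the age values given in the text, those that changed sign in a test were Nlrc5 in endothelial-like sums (-0.064 thinned and -0.066 with free RNA subtracted) and in myeloid-like sums (0.71 with the gate and 0.13 thinned), H2-D1 (-0.10 with more than 2000 genes and -0.092 with free RNA subtracted) and H2-K1 (-0.38 with more than 2000 genes) in MSC-like sums, and Tap2 in neuron-like sums (-0.25 with marker-positive nuclei removed), none of which the report's age test called. Between classes, the gate reversed B2m in NMSC (-0.26), B2m in SGC (0.12) and H2-D1 in NMSC (-0.58). With 1 library left out, class calls ranged from 0 to 8 in NMSC-like, 2 to 6 in SGC-like and 2 to 5 in fibroblast-like sums. The cause of these changes was not tested.

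No paired analysis was possible because the labels give no pairing of adult with aged libraries. Age fits without an aged library had no residual degree of freedom and give values only, and the myeloid-like sums gave no fit above 2000 genes per nucleus, so the class by age call was not tested there. With 1 adult library, age cannot be told apart from that library. Levels near a few UMIs per sum, such as 3 to 7 UMIs for 6 members in the adult myeloid-like sum, limit the precision there.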
